A study of Mus musculus with 6 samples.

Results

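A group of 10 genes of the Wnt pathway was followed in sorted mouse cap mesenchyme, the nephron progenitor tissue of the embryonic kidney, after deletion of Dnmt1 on both alleles or on 1. They were chosen by name: the ligand Wnt4, the transcription factors Lef1 and Tcf7, the target and feedback genes Axin2, Sp5, Nkd1 and Lgr5, and the secreted inhibitors Frzb, Sfrp2 and Dkk1. All 10 were found among the 26567 genes of the deposited tables, and all 10 were among the 16989 genes that passed the filter on low counts. The cells came from C57BL/6 kidneys at embryonic day 18.5 and were isolated by FACS. Both groups carried Six2.Cre, a recombinase driven by the Six2 gene of nephron progenitors, so the deletion is limited to Six2-expressing cells and their descendants. The Dnmt1 KO group (3 libraries, genotype Dnmt1 -/-) had both conditional alleles of the maintenance DNA methyltransferase Dnmt1 deleted. The Dnmt1 HET group (3 libraries, genotype Dnmt1 +/-) had 1 allele deleted and served as the control, and no group with 2 intact alleles was analysed here.

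In the Wnt pathway, a secreted ligand binds a Frizzled receptor and its co-receptor, beta-catenin escapes the destruction complex, and TCF/LEF factors switch on target genes. Several of those targets, Axin2 and Nkd1 among them, damp the signal that induced them. In the developing kidney, Wnt9b from the ureteric bud acts on the cap mesenchyme, and Wnt4 made by the induced cells drives their conversion into the epithelium of the renal vesicle. Secreted inhibitors such as Frzb, Sfrp2 and Dkk1 act outside the cell, on the ligands or on the co-receptor.

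The libraries held 46741667 to 61585484 estimated counts each. Dnmt1 measured 20.9, 18.6 and 14.9 normalised CPM (counts scaled by library size and composition) in the KO libraries, against 40.0, 52.4 and 51.7 CPM in the HET libraries, and fell by 1.41 on the log2 scale (SE 0.15; edgeR, adjusted p = 0.000264). Six2 was present in every library, at 74.97 to 105 CPM in KO and 99.9 to 124 CPM in HET. Summed levels of 15 nephron progenitor markers were 1482 to 1793 CPM in KO and 2137 to 2204 CPM in HET. Of these 15, 4 were lower and 1 higher by the test, beside 1.92% lower and 4.92% higher over all genes tested. In the other lists, 2 induced nephron markers were higher and 1 lower, and 2 podocyte markers were lower. In the ureteric bud, stroma and endothelium lists 1 marker each was higher, and no macrophage or T lymphocyte marker passed. Fold changes were nonetheless positive for 11 of 12 ureteric bud, 13 of 14 stroma and 12 of 13 endothelium markers tested. Their list medians on the log2 scale were 1.001, 0.956 and 1.545. In that order, 1, 5 and 4 markers had every KO library above every HET library, and none the reverse. Of the 15 nephron progenitor markers, 11 had negative fold changes (list median -0.377). Markers of the ureteric bud, stroma and endothelium were highest in KO replicate 1. Summed endothelium markers (14 genes) were 306, 195 and 146 CPM in KO replicates 1 to 3 and 113 to 163 CPM in HET. Summed stroma markers (14 genes) were 1583, 759 and 600 CPM in KO and 491 to 620 CPM in HET. Summed ureteric bud markers (12 genes) were 155, 74.1 and 44.0 CPM in KO and 38.9 to 61.8 CPM in HET. Summed induced nephron markers (14 genes) were 810 to 839 CPM in KO and 739 to 812 CPM in HET, and podocyte markers (8 genes) 59.5 to 77.2 CPM in KO and 78.5 to 97.4 CPM in HET. Macrophage markers (10 genes) summed to 21.3 to 27.1 CPM in KO and 18.1 to 18.9 CPM in HET. T lymphocyte markers (8 genes) summed to 23.4 to 28.1 CPM in KO and 15.5 to 19.97 CPM in HET. Among them, Cd3e and Cd3g were at 0.424 CPM or below in every library. Of the 8, 4 did not reach the filter on low counts, and 3 of the 4 tested had positive fold changes. In bulk RNA, fewer cells of a type and less RNA per cell cannot be told apart. The part of these cell types in the Wnt results was not tested, and Wnt4, Lef1, Dkk1 and the Wnt pathway genes that passed are given with their values without KO replicate 1.

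**Figure D1:**
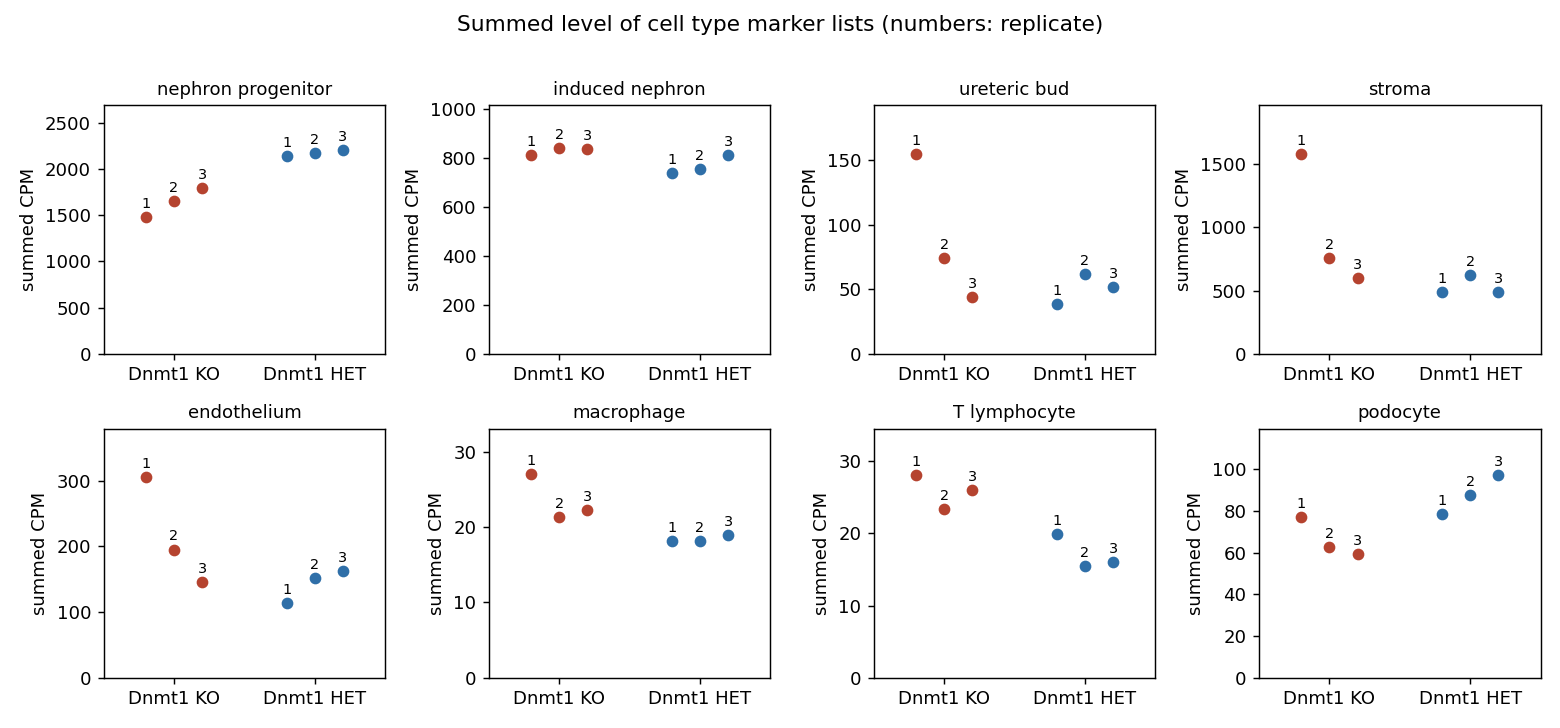
Summed normalised CPM (y axes, from 0) of 8 lists of cell type markers in the 3 Dnmt1 KO and 3 Dnmt1 HET libraries, each point 1 library numbered by replicate. KO replicate 1 holds the highest ureteric bud (155 CPM), stroma (1583 CPM) and endothelium (306 CPM) sums.

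Of the 10 genes, Frzb fell and Sp5 rose in KO cells, each by a little more than 2-fold, and the other 8 did not pass the test. The test was edgeR's quasi-likelihood fit over all 16989 genes, with a Benjamini-Hochberg adjusted p under 0.05. Over all genes tested, 6.85% passed, 4.92% higher and 1.92% lower in KO. The groups of libraries did not overlap for 4 of the 10, 1 higher and 3 lower in KO, where 29.0% of all tested genes did not overlap. The median log2 fold change of the 10 was -0.15, against -0.003 for all genes tested. The count over all genes was 836 higher and 327 lower. With library totals in place of the composition scaling, that count was 731 higher and 1883 lower, and the median over all genes was -0.166.

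**Figure D2:**
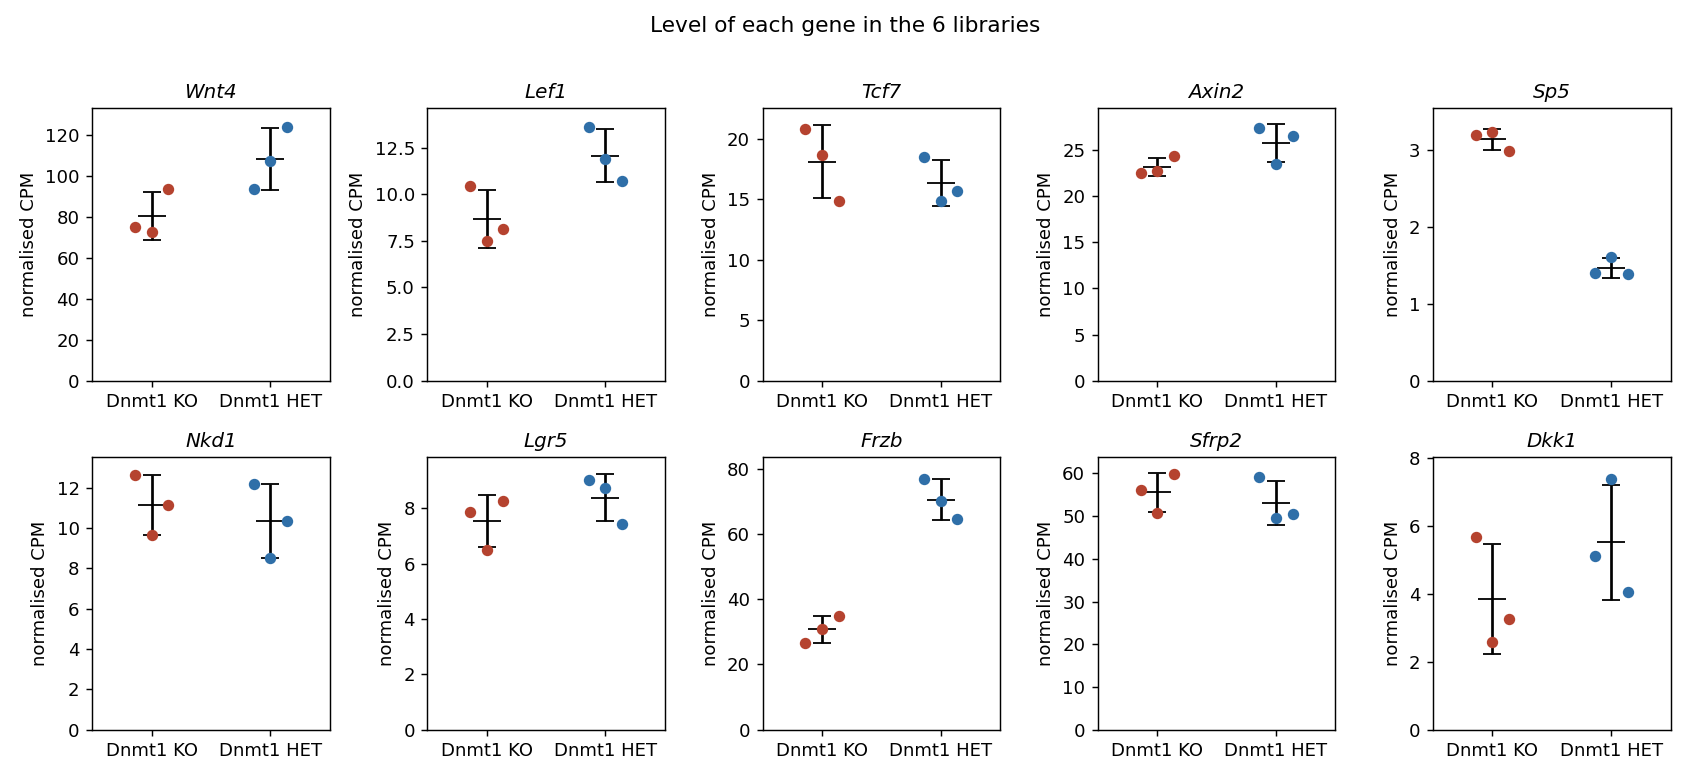
Normalised CPM (y axes, from 0) of the 10 genes, each point 1 library, with the mean and SD of 3 libraries in black. For Frzb the 3 KO libraries (26.5 to 34.7 CPM) lie below the 3 HET libraries (64.5 to 76.9 CPM), and for Sp5 they lie above them.

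The ligand Wnt4 was lower on average in KO cells but did not pass the test. It lies on chromosome 4 from 136833404 to 136855641 on the plus strand (NCBIM37). Its level was 74.97, 72.3 and 93.5 CPM in the KO libraries, against 93.7, 107 and 124 CPM in the HET libraries. The groups were separated only by the small gap between KO replicate 3 and HET replicate 1. The means were 80.3 ± 11.6 CPM in KO and 108 ± 15.1 CPM in HET (SD, n = 3 each). The fitted log2 fold change was -0.43 ± 0.13 (SE), with an adjusted p of 0.0811 by edgeR. DESeq2 placed it past the threshold at almost the same size (log2 fold change -0.42, adjusted p = 0.0240). So did limma on log2(TPM + 1) with its filter (-0.53, adjusted p = 0.0291), and edgeR with library totals (-0.59, adjusted p = 0.0156). EdgeR without KO replicate 3 did too (-0.56, adjusted p = 0.0339). This was the only 1 of 6 fits with a library left out to pass. The other adjusted p values ran from 0.0547 (without HET replicate 1) to 0.306 (without KO replicate 2). Without KO replicate 1 the value was -0.37 (adjusted p = 0.210). Of 17 alternatives, Wnt4 passed in 6. The median over all genes was -0.126 on filtered log2(TPM + 1) and -0.166 with library totals.

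The TCF/LEF factors Lef1 and Tcf7, the nuclear partners of beta-catenin, did not pass the test. Lef1 measured 10.5, 7.50 and 8.11 CPM in KO, against 13.6, 11.9 and 10.7 CPM in HET. Its groups did not overlap, with KO replicate 1 just below HET replicate 3. The log2 fold change was -0.48 ± 0.17 (SE; edgeR, adjusted p = 0.136), and -0.62 without KO replicate 1 (adjusted p = 0.0607). With library totals it passed (-0.63, adjusted p = 0.0485). Tcf7 measured 20.8, 18.6 and 14.9 CPM in KO, against 18.5, 14.8 and 15.7 CPM in HET. Its ranges overlapped almost wholly, and the log2 fold change of 0.15 ± 0.15 (SE) had a 95% interval of -0.18 to 0.48 (edgeR, adjusted p = 0.589). Its sign turned under library totals (-0.012).

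Among the target and feedback genes, Axin2, Nkd1 and Lgr5 did not pass the test. Axin2, a scaffold of the destruction complex that is induced by the pathway, measured 22.5, 22.8 and 24.3 CPM in KO, against 27.4, 23.5 and 26.5 CPM in HET. The log2 fold change was -0.15 ± 0.10 (SE) with a 95% interval of -0.38 to 0.08 (edgeR, adjusted p = 0.427). Nkd1, which binds Dishevelled and inhibits the signal, measured 12.7, 9.66 and 11.2 CPM in KO and 12.2, 8.52 and 10.4 CPM in HET. Its log2 fold change was 0.11 ± 0.17 (SE; edgeR, adjusted p = 0.747), and the sign turned under library totals (-0.051) and without HET replicate 2 (-0.015). Lgr5, a receptor for R-spondins, measured 7.85, 6.50 and 8.27 CPM in KO and 9.003, 8.73 and 7.41 CPM in HET. Its log2 fold change was -0.15 ± 0.17 (SE; edgeR, adjusted p = 0.630), and the sign turned with an offset for transcript length (0.058). For these 3 genes the KO and HET ranges overlapped.

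Sp5, a zinc finger transcription factor and direct target of beta-catenin, rose in KO cells. It was at 3.20, 3.24 and 2.99 CPM in the KO libraries, against 1.40, 1.62 and 1.39 CPM in the HET libraries. Every KO library lay above every HET library, with little spread inside either group. The means were 3.14 ± 0.137 CPM in KO and 1.47 ± 0.128 CPM in HET (SD, n = 3 each). The fitted log2 fold change was 1.10 ± 0.24 (SE), with an adjusted p of 0.0222 by edgeR. The size was steady, at 1.06 to 1.17 when any 1 library was left out, but the call held without KO replicate 3 only (adjusted p = 0.0436). It was also lost on the filtered scales of log2(TPM + 1), at 0.53 (limma, adjusted p = 0.0523), and log2(TPM + 0.1). Without each of the other 5 libraries the adjusted p was between 0.0503 (KO replicate 1) and 0.0853 (HET replicate 3). Without KO replicate 1 the value was 1.09. Summed macrophage and T lymphocyte markers were also higher in each KO library than in each HET library. None of the 10 macrophage markers passed the test, and all 10 had positive fold changes (median log2 fold change 0.53). Of the 8 T lymphocyte markers, 4 did not reach the filter on low counts. None of the other 4 passed, and their fold changes were positive for 3 and negative for 1. The part of other cell types in the Sp5 value was not tested.

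The sequence before the start of Sp5 is shown because it holds a match to the TCF/LEF motif, and that of Dkk1 because it is the only other member with one. Windows from 250 bases before to 50 bases after each RefSeq start (GRCm38.p6) were available for 9 of the 10 genes, 13 windows in all, with none listed for Lgr5. The letters searched were CTTTGAA and CTTTGAT on either strand, and 8.65% of all 32851 such windows hold a match. The 250 bases before the start of Sp5 (chr2:70474673-70474922, plus strand) and Dkk1 (chr19:30549497-30549746, minus strand) read 5′ to 3′ as follows, with the match in capitals.
Sp5: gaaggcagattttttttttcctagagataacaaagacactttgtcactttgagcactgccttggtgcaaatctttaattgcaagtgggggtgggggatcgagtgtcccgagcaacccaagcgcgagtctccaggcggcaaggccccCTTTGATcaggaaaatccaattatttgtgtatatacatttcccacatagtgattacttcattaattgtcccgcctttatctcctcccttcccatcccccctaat
Dkk1: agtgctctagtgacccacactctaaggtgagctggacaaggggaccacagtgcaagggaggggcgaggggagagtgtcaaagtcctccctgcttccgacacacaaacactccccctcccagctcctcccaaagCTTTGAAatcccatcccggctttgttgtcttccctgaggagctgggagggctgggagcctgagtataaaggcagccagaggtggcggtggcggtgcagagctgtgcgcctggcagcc
The match begins 104 bases before the start in Sp5 and 117 bases before it in Dkk1. Sp5 rose while Dkk1 did not pass the test. Since Dnmt1 maintains methylation at CpG, the CpG content of each window was counted too. Sp5 and Nkd1 had 6 CpG each and Dkk1 had 9, near the median of 7 over all windows. Wnt4 had 51, Axin2 31, Sfrp2 22 and Frzb 20, while the 2 windows of Tcf7 had 45 and 17 and the 4 windows of Lef1 had 18, 21, 8 and 5. Methylation itself was not measured in these libraries.

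Of the secreted inhibitors, Frzb fell and Sfrp2 and Dkk1 did not pass. Frzb, also called sFRP3, carries a Frizzled-like domain that binds Wnt ligands, and lies on chromosome 2 from 80252127 to 80287782 on the minus strand (NCBIM37). Its level was 26.5, 30.9 and 34.7 CPM in the KO libraries, against 76.9, 69.9 and 64.5 CPM in the HET libraries. The highest KO library was far below the lowest HET library. The means were 30.7 ± 4.15 CPM in KO and 70.4 ± 6.23 CPM in HET (SD, n = 3 each). The fitted log2 fold change was -1.20 ± 0.12 (SE), with an adjusted p of 0.000112 by edgeR. The call held under all 17 alternative settings (-1.37 to -1.09), and without KO replicate 1 the value was -1.09 (adjusted p = 0.000180).
The 250 bases before its start (chr2:80447397-80447646, minus strand, GRCm38.p6) are given because it had the largest change of the 10, and hold no match to the letters searched.
Frzb: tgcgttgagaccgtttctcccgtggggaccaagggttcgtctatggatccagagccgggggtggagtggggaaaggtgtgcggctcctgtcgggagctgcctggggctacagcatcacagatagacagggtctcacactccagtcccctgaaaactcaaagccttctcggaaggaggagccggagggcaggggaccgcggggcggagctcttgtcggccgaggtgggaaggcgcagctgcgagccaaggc
Sfrp2, a related Wnt-binding protein, measured 56.2, 50.7 and 59.8 CPM in KO, against 59.1, 49.6 and 50.5 CPM in HET. Its log2 fold change of 0.07 ± 0.10 (SE) had a 95% interval of -0.16 to 0.29 (edgeR, adjusted p = 0.736). Its sign turned under library totals (-0.10) and in TPM (-0.076). Dkk1, an inhibitor that acts on the co-receptors Lrp5 and Lrp6, measured 5.66, 2.58 and 3.26 CPM in KO, against 5.11, 7.37 and 4.04 CPM in HET. Its spread was wide, and the log2 fold change of -0.52 ± 0.33 (SE) had a 95% interval of -1.26 to 0.21 (edgeR, adjusted p = 0.389). The value was -0.90 without KO replicate 1, -0.30 without KO replicate 2 and -0.26 without HET replicate 2.

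**Figure D3:**
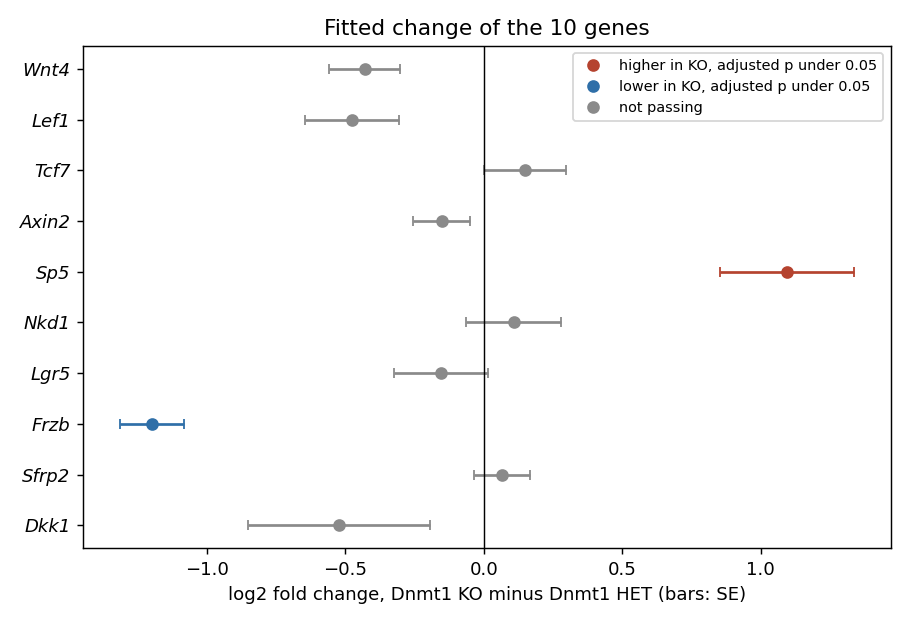
Fitted log2 fold change, Dnmt1 KO minus Dnmt1 HET (x axis), for the 10 genes, with the SE of the edgeR fit as bars. Sp5 (1.10) and Frzb (-1.20) carry the colours of genes that passed, and the other 8 are grey.

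Levels can be compared between genes only per length, as TPM (abundance per transcript length). In KO libraries the order was Sfrp2 (31.8 ± 3.41 TPM), Wnt4 (20.7 ± 3.06), Frzb (12.2 ± 2.35), Axin2 (10.1 ± 0.742), Tcf7 (8.26 ± 1.59), Lef1 (3.51 ± 0.791), Nkd1 (2.90 ± 0.527), Lgr5 (2.65 ± 0.450), Dkk1 (1.79 ± 0.829) and Sp5 (1.69 ± 0.105), each with SD over 3 libraries. In HET libraries Sfrp2 (33.7 ± 5.06 TPM), Frzb (30.6 ± 3.51) and Wnt4 (30.3 ± 3.17) led with overlapping ranges, and Sp5 (0.859 ± 0.0633) was last. Frzb stood beside Wnt4 in HET and, in KO, below it with separate ranges. The ranges from Lef1 to Sp5 overlapped between neighbours in KO. In HET, Dkk1 lay above Sp5 without overlap. These values sum all transcripts of a gene, non-coding ones included. For Axin2, the protein-coding transcript Axin2-001 alone averaged 2.97 TPM in KO and 3.59 TPM in HET.

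The deposited tables list several transcripts for 7 of the 10 genes, and kallisto divides shared reads among them, so single values are uncertain. Of the 50137 transcripts tested, 1.79% passed, 1.59% higher and 0.199% lower in KO. Frzb-001, the protein-coding transcript of 3149 bases, fell by 1.13 on the log2 scale (SE 0.11; edgeR, adjusted p = 0.00336). It measured 10.3 TPM on average in KO and 25.7 TPM in HET, and made up 77.5% or more of Frzb TPM in each KO library and 80.3% to 87.3% in HET libraries. Sp5 has 1 transcript, which rose by 1.16 (SE 0.21; adjusted p = 0.0483), a call lost without any 1 library (adjusted p up to 0.178). No other transcript of the 10 genes passed. Frzb-002, a shorter processed transcript, was listed at or near 0 in KO replicate 1 and took 22.5% and 20.4% of Frzb TPM in the other KO libraries, against 12.7% to 19.7% in HET. Lgr5-001, a protein-coding form of 4714 bases, made up 41.1%, 39.6% and 38.3% of Lgr5 TPM in KO, against 52.3%, 63.4% and 51.8% in HET, shares that did not overlap. With 3 against 3 a two-sided exact permutation test cannot go below 0.10, and Lgr5-001 itself did not pass (log2 fold change -0.36, edgeR adjusted p = 0.446). Of Axin2 TPM, a non-coding processed transcript (Axin2-003) took 56.8% to 60.6% in KO and 60.9% to 67.1% in HET. Of the 2 forms of Nkd1, the longer (4314 bases) took 32.0% to 53.3% of Nkd1 TPM in KO and 42.1% to 61.8% in HET. Lef1-002 took 46.8% to 59.2% of Lef1 TPM in KO and 54.9% to 61.9% in HET, and Tcf7-001 at least 96.2% of Tcf7 TPM in every library. Separate shares were not particular to Lgr5-001. Those of Axin2-003 and Tcf7-001, lower in KO, and of Sfrp2-001, higher in KO, did not overlap either. How often shares were separate over all transcripts was not counted.

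**Figure D4:**
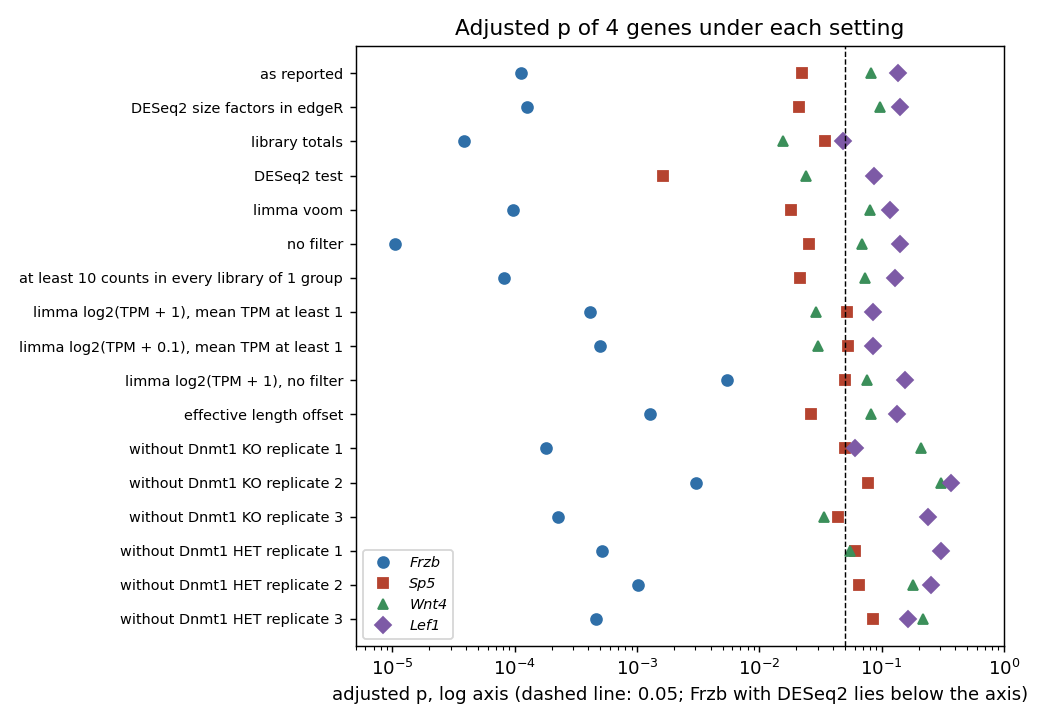
Adjusted p (x axis, log scale) of Frzb, Sp5, Wnt4 and Lef1 as reported and under the other settings (y axis), the replicate block left out. Frzb lies left of the dashed line at 0.05 throughout, while Sp5 crosses it, to 0.0853 without HET replicate 3.

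Beyond the 10, 98 other genes of the pathway were listed, of which 86 were tested. Of these, 2 were higher, 3 were lower and 81 did not pass, beside the 4.92% higher and 1.92% lower over all genes tested, with a median log2 fold change of -0.07. Among 13 tested ligands, 6 had positive and 7 negative fold changes, and Wnt6 alone passed the test. It measured 0.870, 0.771 and 0.511 CPM in KO, against 0.0778, 0.0170 and 0.132 CPM in HET. The HET levels lay near the 3 counts (0.0525 to 0.0692 CPM) taken as the limit of counting, which covers counting error only. The KO levels lay above it, though below 1 CPM. The log2 fold change of Wnt6 was 3.26 ± 0.64 (SE; edgeR, adjusted p = 0.0120), with an adjusted p of 0.0674 without KO replicate 2 and a value of 3.10 (adjusted p = 0.0349) without KO replicate 1. Wnt6 is known from the ureteric bud, whose marker Ret measured 5.66, 4.28 and 1.73 CPM in KO, against 0.233, 0.715 and 0.463 CPM in HET. Ret was the only 1 of 12 such markers whose groups did not overlap, where 29.0% of all tested genes did not overlap. Fold changes were positive for 11 of the 12, and 1 passed. Their summed levels overlapped (44.0 to 155 CPM in KO, 38.9 to 61.8 CPM in HET), and the part of ureteric bud cells was not tested. The ligands Wnt9b and Wnt11 had 0.354 to 3.12 and 0.865 to 2.97 CPM in KO, against 0.0778 to 0.485 and 0.681 to 1.46 CPM in HET, and did not pass.

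None of 4 tested genes for ligand export and R-spondins passed, nor did any of 13 genes of the destruction complex and transducers, beta-catenin (Ctnnb1) among them. Of 17 tested receptors and co-receptors, Fzd4, a Frizzled receptor, was lower in KO (53.5, 52.7 and 47.9 CPM, against 61.2, 68.0 and 73.3 CPM in HET). Its log2 fold change was -0.39 ± 0.09 (SE; edgeR, adjusted p = 0.0332), and its call was lost without 5 of the 6 libraries in turn, HET replicate 1 being the exception (adjusted p up to 0.124). Without KO replicate 1 the value was -0.41 (adjusted p = 0.0574). Of 15 TCF/LEF factors and nuclear partners, Tcf7l2, a TCF factor related to Lef1 and Tcf7, was lower in KO. It measured 114, 117 and 113 CPM in KO, against 179, 156 and 170 CPM in HET, a log2 fold change of -0.55 ± 0.08 (SE; edgeR, adjusted p = 0.00170) that held under all 17 alternatives (-0.54 without KO replicate 1).

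Of 21 tested feedback and direct targets, Sp5 was the only one to pass, with a list median of 0.09. Of 19 tested secreted inhibitors, 1 was higher, 2 were lower, Frzb included, and 16 did not pass, with a list median of 0.03. Sost, sclerostin, an inhibitor acting on Lrp5 and Lrp6, rose to 7.49, 8.06 and 6.76 CPM in KO, against 3.09, 3.57 and 3.38 CPM in HET. Its log2 fold change was 1.15 ± 0.19 (SE; edgeR, adjusted p = 0.00390). Igfbp4, a binding protein of insulin-like growth factors that also inhibits Wnt signalling, fell to 77.9, 68.8 and 72.8 CPM in KO, against 105, 97.2 and 105 CPM in HET (log2 fold change -0.48 ± 0.08, SE; edgeR, adjusted p = 0.00514). Both calls held under all 17 alternatives, and without KO replicate 1 the values were 1.16 for Sost and -0.52 for Igfbp4.

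**Figure D5:**
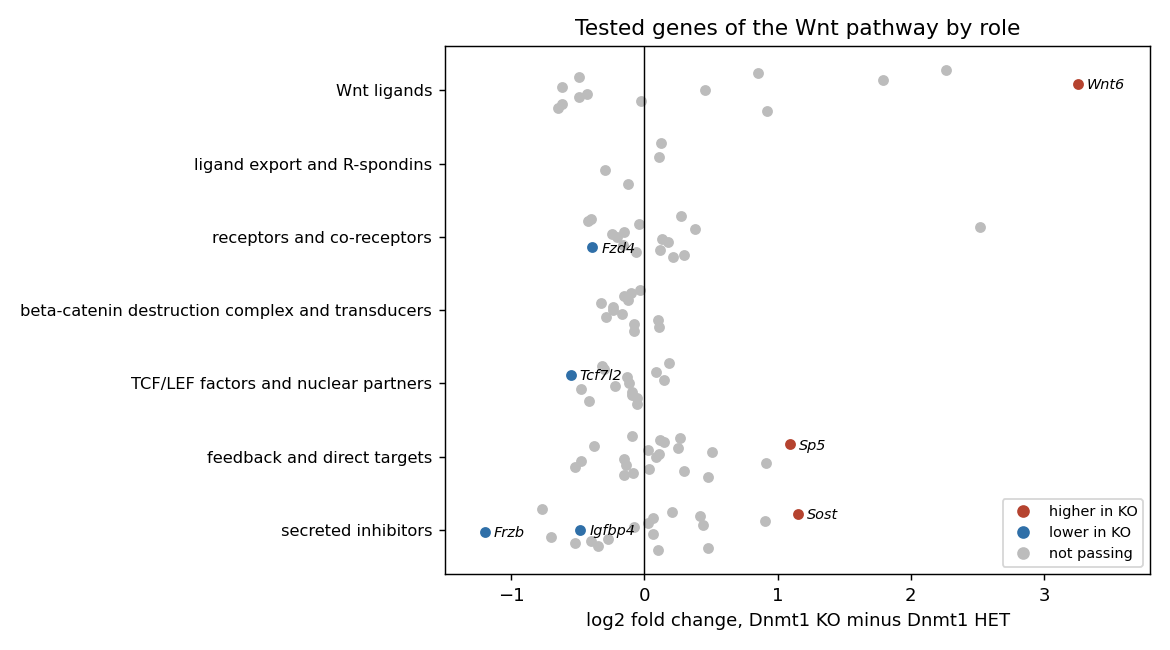
Fitted log2 fold change, Dnmt1 KO minus Dnmt1 HET (x axis), of each tested gene of 7 Wnt pathway lists (y axis; height within a list has no meaning, and a gene may stand in more than 1 list). Named points passed the test: Wnt6, Sp5 and Sost higher, and Fzd4, Tcf7l2, Frzb and Igfbp4 lower.

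Genes with the most similar pattern were sought by the root mean square difference of centred log2(CPM + 1) over the 6 libraries, among 13981 other genes. The nearest to Wnt4 were Aldh16a1 (0.0502), Zdbf2 (0.0589) and Cdh13 (0.0593), none of which passed the test. The nearest to Frzb were Grb10 (0.103), Gsto1 (0.124) and Col9a1 (0.128). Grb10, an imprinted adaptor of growth factor receptors, averaged 631 ± 77.4 CPM in KO and 1355 ± 53.0 CPM in HET (SD, n = 3 each; edgeR adjusted p = 7.6e-05). Gsto1, a glutathione transferase, averaged 19.3 ± 1.77 CPM in KO and 41.0 ± 1.57 CPM in HET. Col9a1, a collagen chain, averaged 12.1 ± 2.61 CPM in KO and 30.7 ± 2.16 CPM in HET. With 2 groups of 3, the measure includes the difference between the groups.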

How the data were processed

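RNA-seq of 3 Dnmt1 KO and 3 Dnmt1 HET libraries of sorted cap mesenchyme was used; an Illumina HiSeq2000 read ultra low input libraries of total RNA, as the labels' protocols say. Per the file headers, the authors deposited estimated counts, which are expected counts and not whole, TPM and effective length of each transcript. The submitters' processing notes name kallisto and mm10. Not given in the sources used here are the version, index annotation and strandedness, and a gene and its antisense partner may share reads. Each table lists 96626 transcripts. GENCODE vM1 (NCBIM37) paired 74519 with 26567 genes, which held 92.4% to 92.82% of counts, and other transcripts entered the transcript test only. Gene coordinates are NCBIM37 and promoter coordinates GRCm38.p6. Counts were added up by gene, then rounded.

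The main test was edgeR 4.0.16 quasi-likelihood with TMM, filterByExpr and robust dispersions (limma 3.58.1, R 4.3.3), with Benjamini-Hochberg adjustment over all genes tested and a threshold of 0.05. The SE was derived from the fit, as the absolute coefficient without shrinkage divided by the square root of the F statistic. The 95% intervals were built from the reported log2 fold change, that SE and the t distribution. Alternatives were DESeq2 1.42.0 (test, and size factors in edgeR), library totals, other filters, limma voom, limma on log2(TPM + 1) and log2(TPM + 0.1), length offset, replicate block and each library left out. No 2 libraries agreed within sampling noise (chi-square per degree of freedom of at least 14.26). The labels do not say that libraries came from separate embryos, and the p-values reflect just the variation among these samples, which may be technical. The 10 genes, the pathway and marker lists and the alternatives were chosen with earlier results of these data known. Named genes are the 10, every other pathway gene that passed, Dnmt1, and the 3 genes nearest to Wnt4 and to Frzb with a mean of at least 1 CPM; transcripts are named from 10% of a gene's TPM. Six2, Ret, Wnt9b, Wnt11, Ctnnb1, Cd3e and Cd3g were named in addition, after their values were seen.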

Additional observations from a re-analysis of the deposited data

How the results depend on the processing

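Of 17 alternative settings, Frzb kept its direction and its call in all. Genes higher and lower in KO numbered 1315 and 624 with DESeq2, 457 and 761 on log2(TPM + 1), 454 and 756 on log2(TPM + 0.1), and 548 higher on log2(TPM + 1) without the filter; library totals gave 1883 lower. Leaving out 1 library gave 526 to 916 higher and 116 to 272 lower. Of the 10 genes, the count higher was 0 on both filtered TPM scales and with the replicate block, and 0 to 1 with a library left out. The count lower was 3 with library totals, 2 with DESeq2, 2 on both filtered TPM scales, 2 with the block and 1 to 2 with a library left out. Transcripts higher were 363 to 602 and transcripts lower 37 to 65 with a library left out, 200 and 12 with the block, and 416 lower with library totals.

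The values gave no sign that replicate numbers pair the samples: correlations of same-numbered deviations were -0.06, -0.05 and -0.03. No sample correlated best with its own number (the highest values, between different numbers, were 0.17, 0.20 and 0.23). Deviations within a group of 3 offset each other, and pairing under other numbers was not tested. With the block, Wnt4 passed (log2 fold change -0.43, edgeR adjusted p = 0.0258), whereas Sp5 (1.10, adjusted p = 0.0597), Fzd4 (-0.39, adjusted p = 0.0685) and Frzb-001 (-1.13, adjusted p = 0.0607) did not.

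Signs turned for genes that had not passed: Tcf7 (-0.012), Nkd1 (-0.051) and Sfrp2 (-0.10) with library totals, Sfrp2 on the TPM scales (-0.076 on log2(TPM + 1) with and without the filter, -0.078 on log2(TPM + 0.1)), Nkd1 without HET replicate 2 (-0.015, within a range of -0.015 to 0.24 with a library left out) and Lgr5 with the length offset (0.058). The median of all genes was -0.166 with library totals and -0.126 and -0.142 on the filtered TPM scales. Relative to it, Wnt4 was at -0.43 with library totals and Lef1 at -0.47, near their reported values. The cause of the other shifts was not tested.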
